A study of Mus musculus with 6 samples.

Results

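The genes described here are 10 surface markers and receptors of muscle stem cells (MuSCs): *Cd34*, *Vcam1*, *Cdh15*, *Calcr*, *Cxcr4*, *Sdc3*, *Sdc4*, *Fgfr4*, *Met* and *Spry1*. They were chosen by name, as the rows of the table of expression that carry these symbols, and make up 10 of its 25166 genes. All 10 were found once and all 10 were tested. The product of *Spry1* acts inside the cell, as an inhibitor of growth factor receptors, and is not a surface protein.

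RNA was sequenced from freshly isolated MuSCs of 3 Sirt6mKO and 3 control (Ctrl) samples, with 1 library per sample. In Sirt6mKO mice (Pax7-ICNCre positive, *Sirt6* fl/fl), a constitutively active Cre recombinase under the *Pax7* promoter removes exons 4 to 6 of *Sirt6*, the gene of a histone deacetylase, in cells of the muscle lineage. Controls are called wild type in the labels, and Cre-negative *Sirt6* fl/fl littermates in the supplementary legend, which gives male mice of 12 weeks. The strain is C57BL/6 in all samples, and RNA came from 100 to 200 sorted cells per sample. Since only the mutants carry the Cre, its presence and the loss of *Sirt6* cannot be told apart. The study speaks of biological replicates, and the labels do not say whether each library comes from an animal of its own, so p-values measure the spread between these libraries, which may be technical.

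The values, called signal here, are taken as reads per gene divided by 1 size factor per library and rounded. By the factors estimated from the values, a single read stands for a signal of 0.729 to 1.79. On this estimate, between 1267947 and 3211528 reads on genes lie behind a library. *Pax7*, the transcription factor that defines these cells, was found at 1810 to 4066 in every library, and *Myf5* at 850 to 1074. *Sirt6* itself stood at 19, 20 and 13 in the mutant libraries and at 18, 17 and 20 in the controls (here and in the following, replicates 1, 2 and 3 of each group in this order) (log2 fold change -0.10, limma-trend with a Benjamini-Hochberg adjusted p = 0.91). This value covers the whole gene, so it cannot show the loss of the floxed exons.

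Resting MuSCs sit between the basal lamina and the membrane of a myofiber and are held there by adhesion molecules and by signals from their niche. M-cadherin and VCAM1 bind neighbouring cells, the calcitonin receptor keeps the cells out of the cycle, and the syndecans carry heparan sulfate chains that present growth factors to their receptors. Of these receptors, MET binds hepatocyte growth factor (HGF) and FGFR4 binds fibroblast growth factors (FGFs), and Sprouty1 dampens their signalling. Several of these proteins, CD34 and VCAM1 among them, are used to sort MuSCs. The study describes sorting by integrin alpha 7 and CD34 or by a fluorescent reporter, and does not state which gate gave these libraries, so that CD34 may itself have been a gate. One reporter, YFP, was sorted from mice with the Cre and a ROSA-YFP allele, which the reporting summary lists in the cross for Sirt6mKO mice. Whether both groups had the same gate is not stated. If the gates differed, their effect on *Cd34* and that of the genotype cannot be told apart.

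Sequences are shown for *Cd34*, the member that passed the test, and for *Calcr*, whose gene holds a microRNA. For *Cd34*, the 200 bases before the gene start given with the expression values read 5′ to 3′ as follows (sequence from RefSeq, GRCm38.p6, chr1:194938619-194938818, plus strand). They are all in lower case because the motif searched for was not found.
Cd34 upstream: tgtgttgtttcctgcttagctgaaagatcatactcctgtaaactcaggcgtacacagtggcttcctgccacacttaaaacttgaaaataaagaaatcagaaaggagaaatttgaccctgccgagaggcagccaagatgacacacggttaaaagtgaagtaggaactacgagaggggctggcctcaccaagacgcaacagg
This window does not hold the letters CANNTG, the E-box core that myogenic factors such as MYOD1 recognise and that reads alike on both strands. Over windows of the same length in 32851 RefSeq promoter entries, 58.2% hold it at least once. Those windows were cut at a fixed position of each entry, not at the kind of gene start used for *Cd34*. The *Calcr* gene in turn contains the hairpin of miR-489, a microRNA known from quiescent MuSCs, whose mature forms are shown with the seed (bases 2 to 8) in capitals (RefSeq, GRCm38.p6, minus strand, chr6:3721922-3721944 for the 3p form and chr6:3721957-3721981 for the 5p form).
mmu-miR-489-3p: aAUGACACcacauauauggcagc
mmu-miR-489-5p: uGUCAUAUgugugaugacacuuucu
The row of the hairpin, *Mir489*, stood at 1, 1 and 1 in Sirt6mKO and at 0, 1 and 0 in Ctrl, which is 2 reads at most in a library. The library type does not measure mature microRNAs, so these values say nothing about them.

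Among the 10 genes, *Cd34* rose in Sirt6mKO and none fell at the test used, limma-trend on log2(signal + 1) with p-values adjusted by Benjamini-Hochberg over the 14227 genes whose mean signal reached 5, and 0.05 as the limit of the adjusted p. That is 1 of 10 members, where 4.52% of all tested genes passed (2.64% higher and 1.88% lower). Limma voom on the reads recovered from the signal likewise called *Cd34* higher and none lower. At an unadjusted p under 0.05 stood 4 members, 2 higher (*Cd34* and *Sdc3*) and 2 lower (*Sdc4* and *Met*), where 18.1% of all tested genes did. No member passed with a change of 2-fold or more, as 2.59% of all tested genes did (1.57% higher and 1.02% lower). Of the 10 log2 fold changes, 5 lay above 0 and 5 below, from -0.46 to 0.81. Their median was -0.01 (all tested genes 0.00), and their median size without sign was 0.24 (all tested genes 0.22). In 2 members, *Cd34* and *Sdc4*, the libraries of the groups did not overlap, which 21.2% of all tested genes showed (11.1% higher and 10.1% lower in Sirt6mKO). The 95% interval of the log2 fold change lay within 2-fold in both directions for 9 of the 10 genes, all but *Sdc3*, and for 66.2% of all tested genes.

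**Figure D1:**
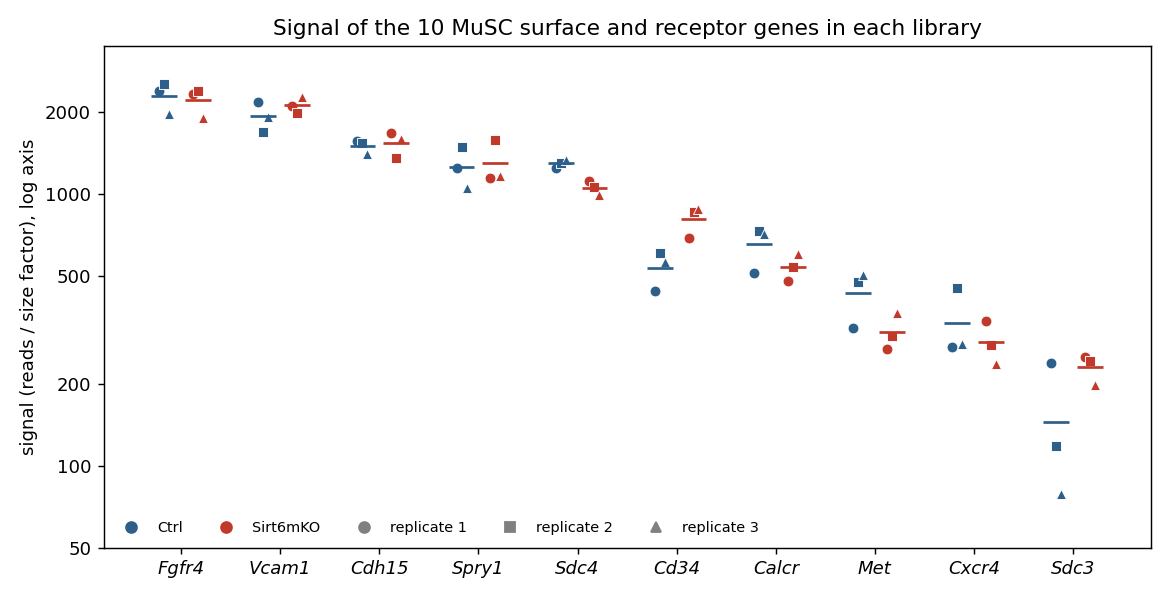
Signal (reads divided by the size factor of the library, log axis) of the 10 genes in each library, blue for Ctrl and red for Sirt6mKO, with a symbol per replicate and a horizontal line at the mean of 3 libraries. *Cd34* lies higher in all 3 Sirt6mKO libraries and *Sdc4* lower, and the groups overlap in the other 8 genes.

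*Cd34* (ENSMUSG00000016494, chromosome 1 of GRCm38, 194938819 to 194961279, plus strand) encodes a sialomucin of the cell surface, found on quiescent MuSCs and also on fibroblasts, endothelium and blood progenitors. The mutant libraries had a *Cd34* signal of 690, 855 and 882 and the controls one of 439, 605 and 563. The lowest Sirt6mKO library stood above the highest Ctrl library, and Ctrl replicate 1 was the lowest of all. The fold change was 1.51 (95% interval 1.23 to 1.87), or 0.60 on the log2 scale (standard error, SE, 0.14, limma-trend adjusted p = 0.031). An exact two-sided permutation test over the 6 libraries gave p = 0.1, the smallest that 3 against 3 libraries allow. Left out in turn, each of 4 libraries ended the call, with a log2 fold change of 0.71 and an adjusted p of 0.052 in limma-trend without Sirt6mKO replicate 1, 0.55 and 0.15 without Sirt6mKO replicate 2, 0.53 and 0.11 without Sirt6mKO replicate 3, and 0.46 and 0.087 without Ctrl replicate 1. In bulk RNA of this kind, a larger share of cells with a transcript and more of it per cell cannot be told apart.

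Because other cells of muscle also carry CD34, their markers are given beside it. Of 7 tested fibroblast markers, 3 rose in Sirt6mKO (*Pdgfra*, *Col1a1* and *Col1a2*) and 1 fell (*Thy1*). Their log2 fold changes lay above 0 in 6 and below in 1, with a median of 1.39. At an unadjusted p under 0.05 stood 5 higher and 1 lower, where 18.1% of all tested genes did. *Col1a2* and *Thy1* passed with any single library left out, whereas *Pdgfra* and *Col1a1* each passed in 1 of 6 such fits, the one without Ctrl replicate 1. The groups overlapped in *Col1a1*, which stood at 420, 1063 and 645 against 487, 128 and 81 in Ctrl, and its log2 fold change ran from 1.40 to 2.69 in those fits. *Col1a2*, a collagen chain, stood at 782, 1299 and 1162 in Sirt6mKO and at 173, 63 and 65 in Ctrl (log2 fold change 3.55, limma-trend adjusted p = 8.5e-05). *Pdgfra*, the receptor that defines fibro-adipogenic cells, stood at 14, 22 and 38 against 9, 4 and 2, while *Ly6a*, whose protein Sca1 served to remove other cells in the sort, was at 0 to 2 in every library. The summed signal of the fibroblast list was 8546 to 10509 in Sirt6mKO and 6150 to 9507 in Ctrl, most of it *Col3a1*. Of the endothelial markers, *Pecam1*, whose protein CD31 was used to remove endothelium in the sort, stood at 22, 27 and 24 against 11, 4 and 29 in Ctrl (log2 fold change 1.05, limma-trend adjusted p = 0.30). *Cdh5*, *Kdr*, *Cldn5* and *Egfl7* stood at 0 to 7 in every library, and the endothelial list summed to 24 to 39 in Sirt6mKO and 11 to 38 in Ctrl. The part of other cells in the rise of *Cd34* was not tested. An antisense gene that overlaps *Cd34*, *Gm16897*, had a signal of 2 to 13.

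*Vcam1* (ENSMUSG00000027962, chromosome 3, 116109949 to 116129688, minus strand) encodes an adhesion molecule that binds integrins on other cells. Sirt6mKO libraries gave 2099, 1987 and 2264, and Ctrl libraries 2177, 1692 and 1923. Ctrl replicate 1 lay above 2 of the Sirt6mKO libraries, so the groups overlapped. This is a log2 fold change of 0.14 (95% interval -0.12 to 0.40, limma-trend adjusted p = 0.61).

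*Cdh15* (ENSMUSG00000031962, chromosome 8, 122847966 to 122867397, plus strand) encodes M-cadherin, which links the MuSC to its myofiber. Signals of 1678, 1352 and 1598 were found in Sirt6mKO and of 1561, 1533 and 1407 in Ctrl, with Sirt6mKO replicate 2 the lowest and Sirt6mKO replicate 1 the highest of all 6. On the log2 scale the difference was 0.04 (95% interval -0.21 to 0.28, limma-trend adjusted p = 0.92). The interval leaves room for a change of up to 1.22-fold upwards.

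*Calcr* (ENSMUSG00000023964, chromosome 6, 3685680 to 3764714, minus strand) encodes the calcitonin receptor, a G protein coupled receptor of resting MuSCs that answers to collagen V of the niche. It reached 477, 538 and 601 in Sirt6mKO, and 512, 731 and 713 in Ctrl. Ctrl replicate 1 lay within the Sirt6mKO range, while the other Ctrl libraries lay above it. The difference was -0.26 on the log2 scale (95% interval -0.58 to 0.05, limma-trend adjusted p = 0.38).

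*Cxcr4* (ENSMUSG00000045382, chromosome 1, 128588199 to 128592293, minus strand) encodes the receptor of the chemokine CXCL12, which guides migrating cells. It reached 340, 277 and 236 in the mutants, and 273, 452 and 280 in the controls. The single high library was Ctrl replicate 2, and the others of both groups overlapped. A log2 fold change of -0.21 was found (95% interval -0.62 to 0.20, limma-trend adjusted p = 0.62), and 0.02 without Ctrl replicate 2.

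*Sdc3* (ENSMUSG00000025743, chromosome 4, 130792537 to 130826319, plus strand) and *Sdc4* (ENSMUSG00000017009, chromosome 2, 164424247 to 164443887, minus strand) encode syndecans 3 and 4, heparan sulfate proteoglycans that span the membrane and act as coreceptors. The signal of *Sdc3* was 252, 242 and 198 in Sirt6mKO and 239, 118 and 79 in Ctrl. The Sirt6mKO libraries lay close together, whereas Ctrl ran from 79 to 239 and its replicate 1 fell among them. The Ctrl value of 79 rests on 44 reads, with an exact Poisson interval of 57.3 to 105.9 that covers counting error only.

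The log2 fold change of *Sdc3* was 0.81 (SE 0.29, 95% interval 0.17 to 1.44, limma-trend adjusted p = 0.16). Without Ctrl replicate 1 it was 1.24 (adjusted p = 0.0037 in limma-trend, the lowest over 19 alternatives, which ranged up to 0.42). *Sdc4* stood at 1112, 1062 and 992 in Sirt6mKO and at 1247, 1303 and 1337 in Ctrl. All Sirt6mKO libraries lay below all Ctrl libraries, and the spread within a group was the smallest of the 10 genes. Its log2 fold change was -0.30 (with an SE of 0.10, 95% interval -0.52 to -0.08, limma-trend adjusted p = 0.13, exact permutation p = 0.1). It did not pass under any of the 19 alternatives, in which the adjusted p of limma-trend ranged from 0.11 to 0.36.

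Within a library, the ratio of *Sdc4* to *Sdc3* does not depend on the scaling. It was 4.40, 4.37 and 4.99 in Sirt6mKO and 5.20, 11.0 and 16.7 in Ctrl. Every Sirt6mKO library stood below every Ctrl library, though Ctrl replicate 1 was close to them. How many other gene pairs separate in this way was not computed. The mean log2 ratio differed by -1.10 (exact permutation p = 0.1), and by -1.56 to -0.72 with 1 library left out.

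*Fgfr4* (ENSMUSG00000005320, chromosome 13, 55152640 to 55168759, plus strand) encodes an FGF receptor that is prominent in the muscle lineage. Libraries of Sirt6mKO gave 2335, 2395 and 1907 and those of Ctrl 2392, 2535 and 1970, with replicate 3 the lowest in both groups. The groups differed by -0.05 on the log2 scale (95% interval -0.34 to 0.23, limma-trend adjusted p = 0.89). *Fgfr1*, a further FGF receptor, stood at 2146, 2389 and 1968 in Sirt6mKO and at 2597, 2681 and 2590 in Ctrl (log2 fold change -0.28, limma-trend adjusted p = 0.20). The ratio of *Fgfr4* to *Fgfr1* within a library was 1.09, 1.00 and 0.969 in Sirt6mKO and 0.921, 0.946 and 0.761 in Ctrl, a mean log2 difference of 0.22 (exact permutation p = 0.1). The groups did not overlap in this ratio, and the share of other gene pairs that separate likewise was not computed. Of single tested genes, 21.2% showed no overlap.

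*Met* (ENSMUSG00000009376, chromosome 6, 17463800 to 17573980, plus strand) encodes the receptor of HGF, a factor that activates MuSCs after injury. Mutant libraries had 268, 300 and 364, control libraries 321, 476 and 504. Again Ctrl replicate 1 lay within the Sirt6mKO range, and the other Ctrl libraries lay above it. The log2 fold change was -0.46 (with an SE of 0.17, 95% interval -0.83 to -0.09, limma-trend adjusted p = 0.17). Without Ctrl replicate 1 it was -0.67 (limma-trend adjusted p = 0.025, from 0.025 to 0.47 over the alternatives).

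*Spry1* (ENSMUSG00000037211, chromosome 3, 37639947 to 37644598, plus strand) encodes Sprouty1, which holds back signalling by receptor tyrosine kinases and is needed for the return of MuSCs to rest. Its values were 1141, 1582 and 1163 in the mutants and 1241, 1483 and 1047 in the controls, with replicate 2 the highest in both groups. The fitted log2 difference was 0.04 (95% interval -0.29 to 0.37, limma-trend adjusted p = 0.93). The antisense genes that overlap *Spry1* and *Vcam1*, *Gm42922* and *Gm43109*, had a signal of 4 to 7 and of 7 to 15.

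**Figure D2:**
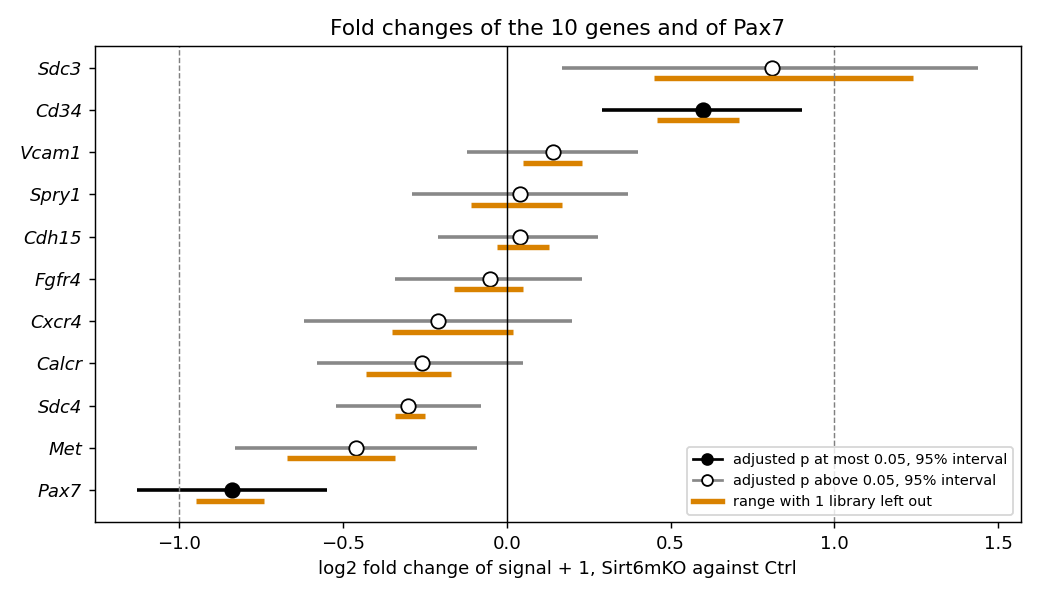
Log2 fold change of signal + 1 (Sirt6mKO against Ctrl) of the 10 genes and of *Pax7*, as a circle with its 95% interval, filled where the limma-trend adjusted p is at most 0.05, and in orange the range of the value when each of the 6 libraries is left out in turn. *Cd34* and *Pax7* are filled, dashed lines mark a 2-fold change, and the orange ranges of *Spry1*, *Cdh15*, *Fgfr4* and *Cxcr4* cross 0.

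For the 9 genes that did not pass, the precision differed. The spread between libraries of a group, as an SD on the log2 scale, was 0.069 for *Sdc4*, 0.129 for *Cdh15* and 0.145 for *Vcam1*, against 0.344 for *Cxcr4* and 0.582 for *Sdc3*. The median over the 10 genes was 0.226, and 0.145 over the 2956 genes with a mean signal in the same range. Counting error alone would give 0.032 for *Fgfr4* and 0.125 for *Sdc3*, less than the spread seen in each. For *Vcam1*, *Cdh15*, *Fgfr4* and *Spry1* the log2 fold change was within 0.15 of 0, and the signs of the last 3 depended on the library left out.

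Set per kilobase of exon (union of annotated exons), where levels of different genes can be compared, *Fgfr4* was highest in Ctrl with a signal of 649 ± 82.9 per kilobase (SD, n = 3). *Sdc4* followed with 509 ± 17.8, *Cdh15* with 462 ± 25.2 and *Spry1* with 433 ± 75.2. In the middle stood *Vcam1* with 218 ± 27.3, *Cxcr4* with 185 ± 56.1 and *Calcr* with 167 ± 31.1 per kilobase. *Cd34* (73.5 ± 11.8), *Met* (56.5 ± 12.8) and *Sdc3* (24.3 ± 13.9) were lowest. Among neighbours in this order, the Ctrl libraries of *Cdh15* and *Spry1*, of *Vcam1* and *Cxcr4*, of *Cxcr4* and *Calcr*, and of *Cd34* and *Met* overlapped, and the others did not.

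In Sirt6mKO the order of these levels was alike at both ends, with *Fgfr4* at 625 ± 75.1 and *Sdc3* at 38.5 ± 4.8 per kilobase (SD, n = 3). *Sdc4* came after *Cdh15* and *Spry1*, at 414 ± 23.7 against 475 ± 52.3 and 446 ± 85.5, and its libraries overlapped with those of both. *Cd34* stood at 111 ± 14.3 per kilobase, still between *Calcr* and *Met*. The length matters for some of these ranks. Over all 6 libraries *Vcam1* had 228 and *Cd34* 92.2 per kilobase of exon union, but 495 and 219.5 per kilobase of the longest transcript.

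*Pax7* fell in Sirt6mKO, from 4066, 3449 and 3150 in Ctrl to 1841, 2307 and 1810 (log2 fold change -0.84, limma-trend adjusted p = 0.0041). The *Pax7* promoter also drives the Cre, which only the mutants carry. Effects of the Cre on *Pax7* and of the loss of *Sirt6* therefore cannot be told apart, here or in the ratios. Ratios within a library give the 10 members relative to *Pax7*. The ratio of a member to *Pax7* within a library was higher in every Sirt6mKO library than in any Ctrl library for 8 of the 10 genes, all but *Met* and *Cxcr4*, and for 71.2% of all tested genes, while 0.541% of them had a lower ratio without overlap. The log2 difference of this ratio was 1.65 for *Sdc3*, 1.44 for *Cd34*, 0.98 for *Vcam1*, 0.54 for *Sdc4* and 0.38 for *Met*, where the median over all tested genes was 0.84. Over the 12 ratios computed, including *Sdc4* to *Sdc3* and *Fgfr4* to *Fgfr1*, no exact permutation p was below 0.1. *Itga7*, the integrin used in sorting, stood at 762, 787 and 715 against 954, 925 and 909 (log2 fold change -0.30, limma-trend adjusted p = 0.12).

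The other genes of these pathways were read from 11 lists, with 119 tested genes, of which 6 rose and 10 fell in Sirt6mKO. Of all tested genes, 2.64% rose and 1.88% fell, the shares beside which the counts per list stand. The lists were drawn up with earlier results of these data known. None of the 3 tested FGF and HGF ligands and activators passed, nor of the 7 further receptors in limma-trend or limma voom (medians 0.38 and 0.16 on the log2 scale). At an unadjusted p under 0.05 stood 2 of the ligands and activators, both higher, and 3 of the receptors, 1 higher and 2 lower. *Fgf2* was at 114, 92 and 112 in Sirt6mKO and 84, 71 and 61 in Ctrl (log2 fold change 0.56, limma-trend adjusted p = 0.094), and *Plau*, a protease that can activate HGF, had a log2 fold change of 0.38 (adjusted p = 0.15 in limma-trend). *Hgf* itself was at 0 to 6 in every library and was not tested. Of 15 adaptors and inhibitors of receptor tyrosine kinases around *Spry1*, 0 passed in limma-trend with Benjamini-Hochberg adjustment, with a median of -0.08, and limma voom called none. At an unadjusted p under 0.05 were 2 higher and 1 lower. Those of highest mean signal were *Spred1*, with a log2 fold change of 0.01 (adjusted p = 0.99 in limma-trend), and *Gab1*, with 0.40 (adjusted p = 0.11 in limma-trend).

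Around the calcitonin receptor, 1 of 13 tested genes fell and none rose (median -0.00). It was *Calcrl*, the relative of *Calcr* that binds adrenomedullin and calcitonin gene-related peptide together with RAMP proteins. It stood at 17, 14 and 9 in the mutants and at 57, 182 and 129 in the controls, so that all mutant libraries lay below all controls. Its log2 fold change was -3.00 (with an SE of 0.37, limma-trend adjusted p = 0.00084), which ran from -3.47 to -2.64 with 1 library left out and passed each time. *Ramp2*, its partner, stood at 140, 119 and 110 against 155, 174 and 185 (log2 fold change -0.48, limma-trend adjusted p = 0.084). The collagen V gene *Col5a1* had a log2 fold change of 0.17 and *Gnas*, the G protein subunit that couples the receptor to cyclic AMP, of -0.23, and neither passed.

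Of 10 other heparan sulfate proteoglycans beside *Sdc3* and *Sdc4*, log2 fold changes lay above 0 in 8 and below in 2 (median 0.28). At an unadjusted p under 0.05 were 4 higher and 1 lower, where 18.1% of all tested genes stood. Limma voom called 2 higher, whereas 1 rose in limma-trend. This was *Gpc3*, a glypican anchored to the outer membrane, at 60, 73 and 73 in Sirt6mKO and 31, 15 and 5 in Ctrl, with no overlap (log2 fold change 2.25, SE 0.46, limma-trend adjusted p = 0.014). It passed in 3 of the 6 fits with 1 library left out, and not without any single Sirt6mKO library (limma-trend adjusted p of 0.0015 to 0.091 over all alternatives). *Hspg2* (perlecan), which had the highest mean signal of the list, gave a log2 fold change of 0.55 (adjusted p = 0.084 in limma-trend), and *Tgfbr3* (betaglycan) one of -0.14 (adjusted p = 0.56 in limma-trend).

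Of the 15 tested enzymes that build and trim heparan sulfate, 2 fell and none rose (median 0.02). *Hs2st1*, which adds 2-O-sulfate, stood at 270, 289 and 304 against 380, 422 and 432 in Ctrl (log2 fold change -0.51, limma-trend adjusted p = 0.021). *Glce*, the epimerase that acts just before it in the chain, stood at 457, 341 and 369 against 517, 657 and 520 (log2 fold change -0.54, limma-trend adjusted p = 0.046). The call of *Glce* was lost in all 6 fits with 1 library left out, and that of *Hs2st1* in 4 of 6. The enzymes of highest mean signal, *Sulf1* and *Ndst1*, had log2 fold changes of 0.06 and -0.12 and did not pass.

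Among 7 tested cadherins and catenins, 1 rose and none fell (median -0.02). *Cdh4* (R-cadherin) had a signal of 172, 247 and 214 in Sirt6mKO and of 77, 64 and 34 in Ctrl, and every mutant library was above every control. The log2 fold change was 1.90 (with an SE of 0.25, limma-trend adjusted p = 0.0013) and passed with any single library left out. *Ctnnb1* and *Ctnna1*, the catenins of highest signal, had log2 fold changes of -0.14 and 0.37 and did not pass.

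**Figure D3:**
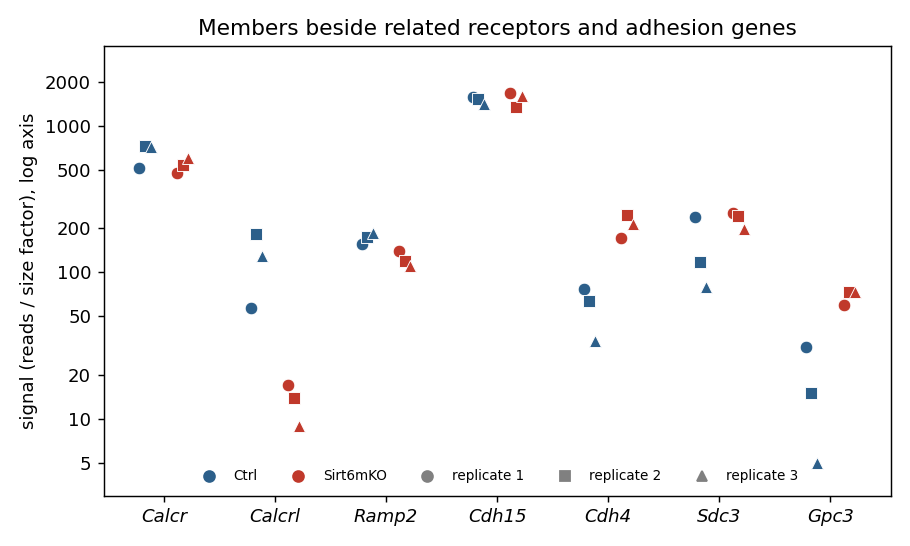
Signal (reads divided by the size factor, log axis) of 3 of the 10 genes beside related genes, blue for Ctrl and red for Sirt6mKO, with a symbol per replicate. *Calcrl* is lower and *Cdh4* and *Gpc3* are higher in every Sirt6mKO library than in any Ctrl library, while *Calcr*, *Cdh15* and *Sdc3* overlap.

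Of 7 tested partners and relatives of VCAM1 and CD34, 1 fell (median -0.20). *Mcam* (CD146), an adhesion molecule also used as a vascular marker, stood at 57, 51 and 66 in Sirt6mKO and at 93, 149 and 111 in Ctrl (log2 fold change -0.99, limma-trend adjusted p = 0.012), and passed in 3 of the 6 fits with 1 library left out. *Ncam1* and *Crkl*, those of highest mean signal in the list, had log2 fold changes of 0.10 and 0.01 and did not pass. The sialomucin *Podxl*, a relative of *Cd34*, had a signal of only 9 to 34 and a log2 fold change of 0.84 (limma-trend adjusted p = 0.31), and was named after its values were seen.

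Of 10 tested CXCR4 partners, 1 rose and 1 fell (median 0.12). *Rgs16*, which shortens signalling by G proteins, stood at 18, 24 and 33 in Sirt6mKO and at 66, 86 and 108 in Ctrl (log2 fold change -1.77, limma-trend adjusted p = 0.0021), with no overlap and a call in every fit with 1 library left out. *Cxcl14*, a chemokine, stood at 70, 42 and 32 against 10, 12 and 0 (log2 fold change 3.15, SE 0.76, limma-trend adjusted p = 0.034). This change rests on a few reads in Ctrl and was not called in 3 of the 6 fits with 1 library left out, those without a Sirt6mKO library. *Gnai2* and *Arrb1*, those of highest mean signal, had log2 fold changes of 0.18 and 0.49 and did not pass. *Cxcl12*, the ligand of CXCR4, stood at 27 to 75 over all libraries (log2 fold change 0.39, limma-trend adjusted p = 0.53) and was likewise named after its values were seen.

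Of 18 other genes that mark MuSCs, 3 fell and none rose (median -0.17). At an unadjusted p under 0.05 were 7 lower and 1 higher, and limma voom called 4 lower and 1 higher. Beside *Pax7* these were *Cd82*, a tetraspanin of the MuSC surface, at 969, 935 and 833 against 1253, 1361 and 1165 in Ctrl (log2 fold change -0.47, limma-trend adjusted p = 0.032), and *Chrdl2*, an antagonist of bone morphogenetic proteins, at 500, 453 and 326 against 943, 1019 and 767 (log2 fold change -1.10, limma-trend adjusted p = 0.0021). *Chrdl2* and *Pax7* passed with any library left out, and *Cd82* in 1 of 6 fits. *Dag1* and *Notch3*, those of highest mean signal in the list, had log2 fold changes of -0.27 and 0.61 and did not pass.

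**Figure D4:**
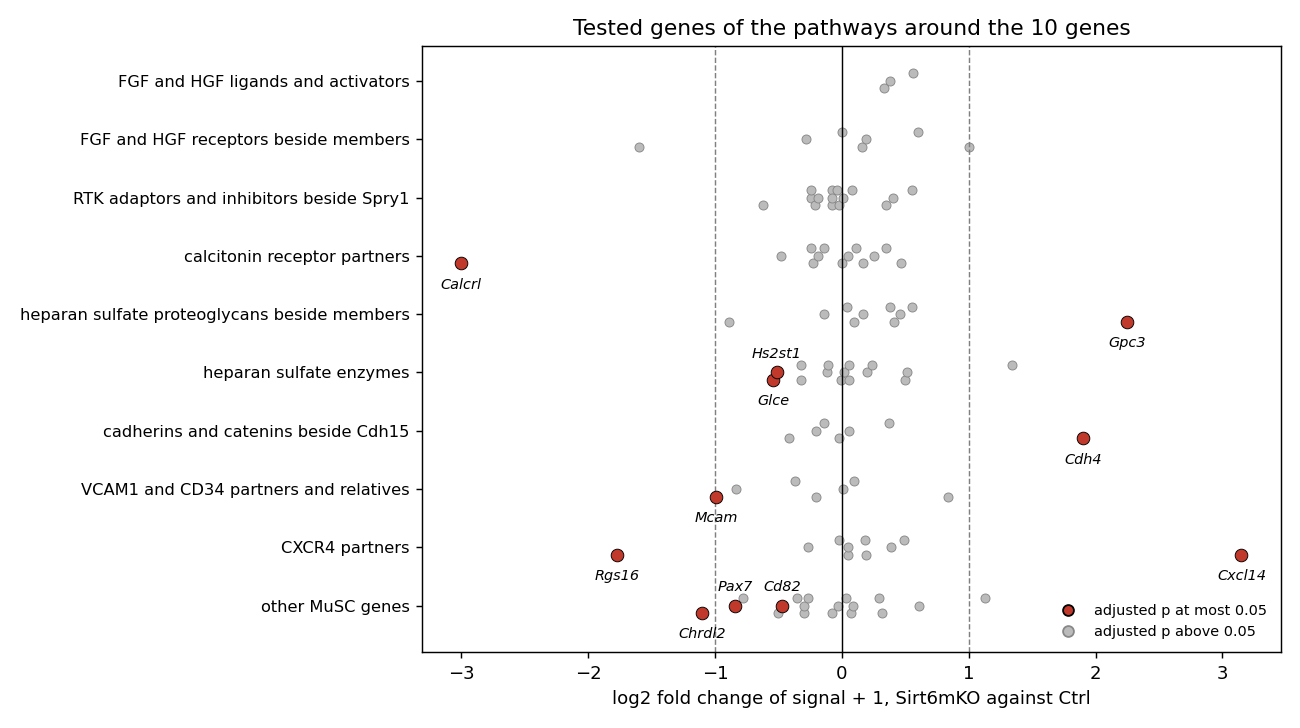
Log2 fold change of signal + 1 (Sirt6mKO against Ctrl) of each tested gene in 10 lists of genes around the members, 1 line per list, in red where the limma-trend adjusted p is at most 0.05 and in grey otherwise, with dashed lines at a 2-fold change. *Calcrl*, *Rgs16* and *Chrdl2* lie beyond the left line and *Cdh4*, *Gpc3* and *Cxcl14* beyond the right line.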

How the data were processed

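MuSCs were sorted by FACS and total RNA was sequenced. The labels name RiboGone, the SMARTer Stranded kit and single-end reads of an Illumina NextSeq500, whereas the paper's methods name RiboMinus, an Ion Total RNA-Seq kit and an Ion PI sequencing kit for MuSCs. The authors trimmed the reads, aligned them to mm10 (GRCm38) with STAR, assigned them to genes with featureCounts, where reads on several genes or regions were dropped, and used DESeq2. The submitters' notes give STAR 2.7.10a, featureCounts 2.0.2 and DESeq2 1.30.1. Whether the strand was used in counting is not given in the sources used here, so antisense genes may share reads. The unit of the deposited signal values is not named. Gaps among the low whole numbers of Ctrl replicates 1 and 3 show reads divided by a size factor and rounded (of the numbers from 1 to 60, 11 and 27 are missing). The remaining libraries had 0 such gaps and were taken to be alike. The factors (0.558 to 1.37) were estimated for each library by a fit to its low values, so numbers of reads are estimates.

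The 10 members and all gene lists were chosen with earlier results of these data known. The main test was limma-trend (limma 3.58.1, R 4.3.3) on log2(signal + 1) over all 6 libraries, with Benjamini-Hochberg adjustment over 14227 genes. The fold and mean minimums and the adjusted p are those of the study. A fold change on this scale understates the change of low genes. Intervals are at 95%. Named were the members, *Pax7*, *Itga7*, *Itgb1* and *Sirt6*, the genes of each list that passed, the 2 most abundant of each list, and the 3 genes most like a member that passed. Genes outside this rule (*Ramp2*, *Hgf*, *Podxl*, *Cxcl12*, *Mki67*, *Myf5*, *Ly6a*, *Kdr*, *Cldn5*, *Egfl7*, *Mir489* and the antisense genes) were named after their values were seen. Lists were counted, with no set test, and 1 marker list is not reported here. Exon lengths came from GENCODE M21, which lists 99.7% of the gene identifiers, and 9 of 10 members had an entry among the RefSeq promoters. The fit was tested on simulated data, and the outcome is not given here. Alternatives were other scalings (among them a trimmed mean of log ratios), pseudocounts, minimum means, fits (limma-trend on log2 CPM and limma voom on reads recovered with the factors), a replicate block, a stricter threshold and leaving out each library. Python 3.11.15 with numpy 2.4.6, pandas 2.3.3 and scipy 1.17.1 was used for the tables.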

Additional observations from a re-analysis of the deposited data

How the results depend on the processing

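Among the recomputed log2 fold changes of the members, 183 kept direction and side of the threshold under an alternative, 6 lost the call, 4 gained it and 7 changed sign. Among the counts, ratios and levels, 379 stayed within 1.5 times or 1 SD and 47 moved. The call of *Cd34* was also lost at an adjusted p of 0.01. It was likewise lost without a filter on low values, where more genes are tested (limma-trend adjusted p = 0.061, from 0.0075 to 0.15 over the alternatives). Apart from the stricter threshold, the call held in 14 of 19 alternatives. Signs changed for *Cdh15* (-0.03 without Sirt6mKO replicate 1 and -0.01 without Ctrl replicate 3), *Fgfr4* (0.05 without Sirt6mKO replicate 3 and 0.02 without Ctrl replicate 2), *Spry1* (-0.11 without Sirt6mKO replicate 2 and -0.08 without Ctrl replicate 3) and *Cxcr4* (0.02 without Ctrl replicate 2), none of which had passed. With 1 library left out, these 4 ran from -0.03 to 0.13, -0.16 to 0.05, -0.11 to 0.17 and -0.35 to 0.02. Without a filter and at an adjusted p of 0.01, 0 members were higher. With 1 library left out, 0 to 1 members were higher, 0 to 1 higher by 2-fold (*Sdc3*, without Ctrl replicate 1) and 0 to 1 lower (*Met*, likewise).

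Over all genes, leaving out a library gave 127 to 443 higher and 106 to 240 lower genes (by 2-fold 88 to 294 and 81 to 151), a minimum mean of 50 gave 220 and 164 (76 and 52), and an adjusted p of 0.01 gave 130 and 103 (93 and 77). Of the related genes, 4 to 11 were higher and 4 to 10 lower with a library left out (by 2-fold 1 to 4 and 3 to 7), 1 was higher by 2-fold at a minimum mean of 50, with robust empirical Bayes and at an adjusted p of 0.01, and 6 were lower without a filter and 4 at an adjusted p of 0.01. Per kilobase of the longest transcript, the level of *Cd34* was 219.5 and that of *Vcam1* 495. Other scalings moved the median of all genes to between -0.015 and 0.004. The cause of these shifts was not tested.

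Whether the replicate numbers pair the samples was not tested. Deviations of same-numbered libraries correlated with r of 0.055, 0.046 and 0.236 over 7394 genes, and those of differently numbered libraries with r from -0.171 to 0.136. Only replicate 3 correlated best with its own number. With the replicate block, 2 members were higher (*Cd34* and *Sdc3*, limma-trend adjusted p = 0.04) and 1 lower (*Met*, limma-trend adjusted p = 0.045), beside 481 higher and 333 lower genes in all.

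Depth limits low genes most in Ctrl replicate 3, where a read stands for a signal of 1.79, while the members rest on 44 to 3478 reads per library.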

Other observations

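Genes of activation and commitment, which MuSCs use when they leave rest, went in both directions. Of 14 tested, 3 rose and 2 fell in Sirt6mKO (median log2 fold change -0.55). That is 35.7% of this list, where 4.52% of all tested genes passed. The list was drawn up with earlier results of these data known, so its share is not a test of these genes. At an unadjusted p under 0.05 stood 4 higher and 5 lower, where 18.1% of all tested genes did. The immediate early genes *Fos* (3442, 3757 and 4355 against 1951, 2632 and 2302 in Ctrl), *Jun* (4090, 4300 and 5182 against 2358, 2943 and 2481) and *Egr1* (3897, 4646 and 3912 against 2788, 2446 and 2026) rose, with log2 fold changes of 0.75, 0.80 and 0.79 and limma-trend adjusted p of 0.0081, 0.0047 and 0.0062. Their groups did not overlap, and all 3 passed with any single library left out.

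The genes that fell were *Myod1*, the factor of myogenic commitment, at 79, 80 and 75 against 93, 184 and 169 (log2 fold change -0.86, limma-trend adjusted p = 0.045), and *Ccnd1*, the cyclin of entry into the cycle, at 383, 351 and 687 against 830, 860 and 749 (-0.84, limma-trend adjusted p = 0.033). Each passed in 1 of the 6 fits with 1 library left out. *Mki67*, a marker of dividing cells, ran from 30 to 182 in Sirt6mKO and from 119 to 289 in Ctrl and did not pass (limma-trend adjusted p = 0.17).

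Over the 6 libraries, the genes whose log2 signal followed *Cd34* most closely among 7393 genes whose mean signal reached 50 were *Desi2* (Pearson r = 0.989), *Atp2c1* (0.985) and *Sat1* (0.977). They were picked for this likeness, the points share the division into groups, and none of the 3 passed the test.

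Beside the fibroblast and endothelial markers, those of myofibers summed to 319 to 1411 in Sirt6mKO and 302 to 319 in Ctrl (1 of 8 passed, *Acta1*, higher), those of tenocytes to 46 to 577 and 35 to 55, those of mural cells to 4344 to 5434 and 2793 to 3830 (most of it *Notch3*, which MuSCs also express) and those of immune cells to 41 to 76 and 42 to 72. *Acta1* stood at 548, 656 and 143 against 118, 131 and 93 in Ctrl, and *Myh4* at 252, 274 and 47 against 46, 45 and 36, so Sirt6mKO replicates 1 and 2 stand apart and replicate 3 lies near the controls. *Acta1* (log2 fold change 1.71) passed in 1 of the 6 fits with 1 library left out, the one without Sirt6mKO replicate 3, and its log2 fold change ran from 1.30 to 2.40 over them. The tenocyte sum is highest in Sirt6mKO replicate 2, through *Fmod* (11, 481 and 163 against 11, 17 and 7), while *Scx* stood at 33, 27 and 24 against 16, 23 and 23. Of the other lists, those of highest signal were *Acta2*, *Cd68* and *Cd79a*, with log2 fold changes of -0.02, 0.21 and -0.76. In the tenocyte, mural and immune cell lists none of 5, 6 and 2 tested genes passed in limma-trend. At an unadjusted p under 0.05 were 5 of the 8 myofiber markers, 3 tenocyte markers and 1 mural marker, all higher. Of all tested genes, 18.1% stood there in either direction. The median log2 fold change of the myofiber markers was 1.07. Limma voom called 1 mural marker higher and no myofiber marker. *Itgb1*, the integrin partner of *Itga7*, had a log2 fold change of -0.00 (limma-trend adjusted p = 1.0).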
